A study of Mus musculus with 12 samples.

Results

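CD8a and CD4 T cells of the spleen were compared within each of the 3 S100a9 knockout mice that had been through social defeat, over the 2166 genes listed for both cell types, of 3684 listed for either. A gene was a member if its name stood in at least 1 of the deposited CD8a tables and at least 1 of the CD4 tables; 685 genes were listed for CD8a cells only and 833 for CD4 cells only. The series measured splenocytes of 12 mice by droplet single-cell RNA sequencing of transcript 3′ ends, with 3 mice in each of 4 groups. The mice used first here, labelled S100a9-/- C57Bl6/J, lacked S100a9, a subunit of the neutrophil protein calprotectin, and went through repeated social defeat for 10 days. The other groups were unstressed mice of that genotype, C57Bl6/J wild-type mice after the same defeat, and unstressed wild-type mice. All mice had 1 day of behaviour testing and their spleens were taken on day 12; their age is not given in the labels. Every value is the authors' average expression of a gene over the cells of a type in a mouse, on a linear scale whose listed genes summed to between 8102 and 8124 in CD8a cells and between 8120 and 8152 in CD4 cells of the stressed knockout mice. Whether more cells of a kind or more RNA per cell sets such an average cannot be told apart.

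CD8 and CD4 are the coreceptors that divide most T cells into a pair of lineages. CD8, a dimer of the Cd8a and Cd8b1 products, binds MHC class I and marks the cells that become cytotoxic, whereas CD4 binds MHC class II and marks helper and regulatory cells. Runx3 holds the CD8 programme and silences Cd4, and the T-box factors T-bet and Eomes drive cytotoxic and memory genes such as Il2rb.

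The labels of the cell types were met by their markers. Cd8a (chromosome 6, 71373427 to 71379173, plus strand, mm10) averaged 3.69, 3.79 and 3.38 in CD8a cells of mice 1, 2 and 3, against 0.0526, 0.175 and 0.235 in CD4 cells of the same mice. Cd8b1, which encodes the other chain of the dimer (chromosome 6, 71322788 to 71337494, plus strand), averaged 9.0, 9.55 and 8.01 in CD8a cells and 0.381, 0.643 and 0.747 in CD4 cells. Cd4 was listed for CD4 cells only, at 1.86, 2.47 and 1.91, and its level in CD8a cells was not analysed here. How cells were assigned to the types is not given in the sources used here, so the coreceptor genes may have served to assign them, and their difference is given as a check of the labels. S100a9 itself was at 0.0403, 0.00779 and 0.0337 in CD8a cells and 0.0294, 0.0230 and 0.0228 in CD4 cells, against 0.0889, 0.0368 and 0.0851 in CD8a cells and 0.111, 0.0595 and 0.106 in CD4 cells of stressed wild-type mice. In unstressed mice it went against the labels, averaging 0.0363 ± 0.00848 in CD8a and 0.0449 ± 0.00387 in CD4 cells of mice labelled knockout and 0.0175 ± 0.0150 in CD8a and 0.0110 ± 0.00613 in CD4 cells of wild-type mice (SD, n = 3 each). The labels do not say which stretch was removed, so 3′ reads of S100a9 do not check the genotype. The mitochondrial gene mt-Nd3 did follow the labels, at 0, 0.00999 and 0.00805 in CD8a cells of stressed knockout mice, against 1.76, 1.48 and 1.07 in those of stressed wild-type mice.

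Of the 2166 genes, 158 were higher in CD8a cells (7.29%) and 208 were lower (9.6%), at an adjusted p under 0.05 in limma fitted to the paired differences of log2(value + 0.1). The background of calls in either direction was 16.9%. These shares are the ones to set beside the count of calls in each list below. The same sign held in all 3 mice for 157 of the higher and for all 208 lower genes. CD8a and CD4 values did not overlap for 144 of the higher genes and 195 of the lower ones, where 10.9% of all genes did not overlap with CD8a higher and 20.5% with CD8a lower. Most differences were small. Among higher genes, 17 differed by at least 1 on the log2 scale and 7 by at least 2, with a median of 0.30; among lower genes, 9 and 3 did so, with a median of −0.41. Over all genes the median difference was −0.06, with quartiles of −0.19 and 0.09. The balance of directions turned with the scaling. With each average centred on its median, 238 genes were higher and 143 lower, so 62.5% of calls were higher in place of 43.2%. Of the fits that left out 1 mouse, the fit without mouse 2 kept the fewest calls, at 90 higher and 88 lower genes. Nkg7 had a smaller SE without mouse 2 than without mouse 1 (0.088 against 0.12) but a larger limma adjusted p (1.9e-04 against 2.2e-07). Whether calls lost there reflect the values of mouse 2 or that fit's estimate of spread was not tested. The trend that lets limma borrow spread between genes of like level carried most calls: without it 30 genes were higher and 45 lower, and 291 of the 366 calls were lost. Among the genes named below, that fit did not call Dapl1, Ms4a4b, Ccl5, Cxcr4, Ccr9, Glipr2, Ly6e, S100a10, S100a11, Ets1, Trbc2, Fyb, Lat, Cd3g, H2-D1, Psmb9, Rps18, Rpl32, Eef1b2, Gas5, mt-Nd1, mt-Nd2, mt-Cytb, Atp5md, Ndufa3, Tmsb4x, Actb, Malat1, Hspe1, Ddit4, Cd74, H2-Eb1 or Hbb-bs.

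**Figure D1:**
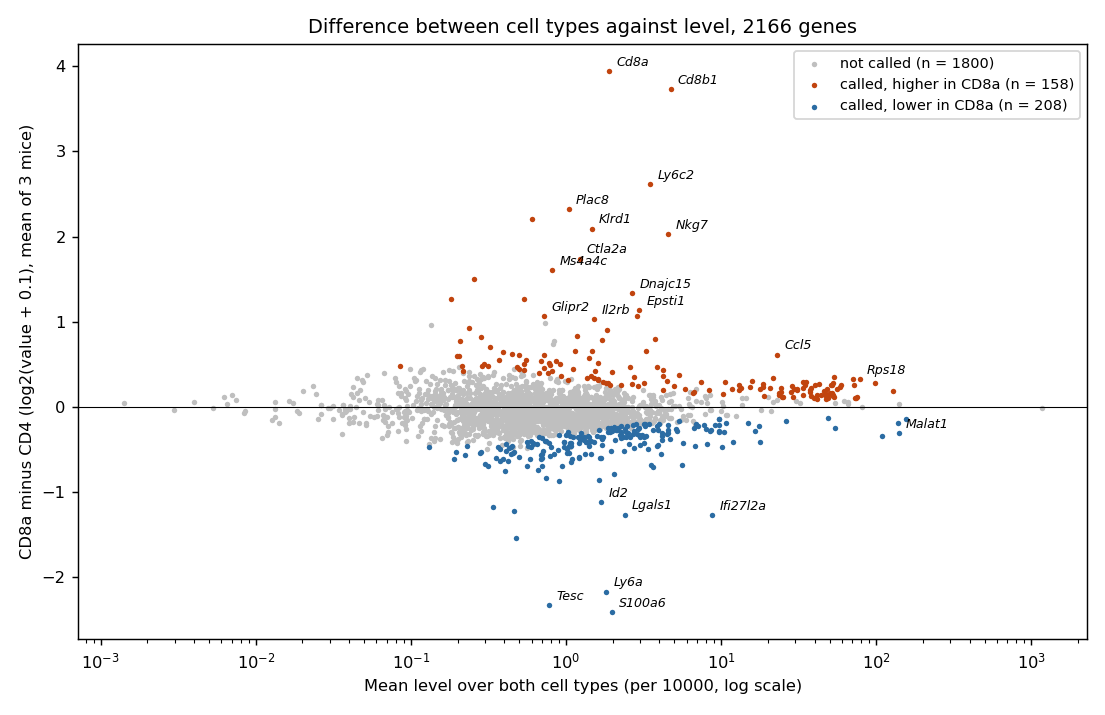
CD8a minus CD4 difference on the log2(value + 0.1) scale, as the mean of 3 stressed knockout mice, against the mean level over both cell types on a log axis, for 2166 genes. Orange points are the 158 genes called higher in CD8a cells, blue points the 208 called lower and grey points the rest; the wide differences lie at middling levels, with Cd8a and Cd8b1 at the top and S100a6, Tesc and Ly6a at the bottom.

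The start regions of genes from both ends of the ranking are shown because their differences are among the widest outside the coreceptor genes. Plac8, Ccr9 and Klrd1 had wider differences than Nkg7 and are not shown. Each spans 300 bases around the first start listed for the gene in RefSeq, build GRCm38.p6, 5′ to 3′ on the gene's strand. Capitals mark the Runx motif TGTGGT or ACCACA and the T-box motif GGTGTG or CACACC, searched on both strands; the motifs can share bases. Ly6c2 lies at chr15:75111922-75112221 on the minus strand, Nkg7 at chr7:43436888-43437187 on the plus strand, S100a6 at chr3:90612644-90612943 on the plus strand and Tesc at chr5:118027493-118027792 on the plus strand.
Ly6c2: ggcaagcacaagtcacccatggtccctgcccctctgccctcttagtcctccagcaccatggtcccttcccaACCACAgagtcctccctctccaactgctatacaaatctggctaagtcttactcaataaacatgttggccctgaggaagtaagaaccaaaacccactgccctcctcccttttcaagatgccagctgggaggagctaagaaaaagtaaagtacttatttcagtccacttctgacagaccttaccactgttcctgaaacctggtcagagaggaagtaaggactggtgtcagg
Nkg7: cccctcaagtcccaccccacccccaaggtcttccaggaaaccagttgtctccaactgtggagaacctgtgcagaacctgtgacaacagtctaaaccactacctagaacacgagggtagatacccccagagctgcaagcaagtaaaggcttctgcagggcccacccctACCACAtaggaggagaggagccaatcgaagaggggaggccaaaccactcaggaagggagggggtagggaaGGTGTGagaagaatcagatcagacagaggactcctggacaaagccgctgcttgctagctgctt
S100a6: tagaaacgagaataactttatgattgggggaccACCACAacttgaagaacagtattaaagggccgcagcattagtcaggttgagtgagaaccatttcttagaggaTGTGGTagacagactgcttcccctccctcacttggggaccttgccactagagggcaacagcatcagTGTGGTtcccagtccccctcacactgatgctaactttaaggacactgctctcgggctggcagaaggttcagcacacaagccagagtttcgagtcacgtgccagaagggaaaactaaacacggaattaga
Tesc: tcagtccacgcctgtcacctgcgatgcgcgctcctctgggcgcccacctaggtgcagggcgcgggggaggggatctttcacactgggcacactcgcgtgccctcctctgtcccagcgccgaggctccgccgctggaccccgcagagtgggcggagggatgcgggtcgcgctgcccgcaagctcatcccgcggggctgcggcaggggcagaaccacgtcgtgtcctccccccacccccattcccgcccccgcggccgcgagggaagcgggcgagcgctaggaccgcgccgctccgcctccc
Ly6c2 held 1 Runx match, Nkg7 held 1 Runx and 1 T-box match, S100a6, which was lower in CD8a cells, held 3 Runx matches, and Tesc held none of either. The start regions of Cd8a and of Ass1, a gene lower in CD8a cells, are not shown and also held none of either. Among genes of the comparison with an entry in the table, 23 of 114 called higher (20.2%) and 19 of 158 called lower (12.0%) held the Runx motif, against 13% of 1595 genes listed for both types and 16.8% of all 32851 promoters. The T-box motif stood in 18.4% of the higher, 14.6% of the lower, 16.7% of the shared and 19.0% of all promoters. These shares are descriptions, and a match is not a binding site.

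Genes of the CD8 programme and of cytotoxic cells were higher in CD8a cells. All 9 members of the CD8 lineage list with values for both types were called higher, with a median difference of 1.60 against −0.06 over all genes. Without Cd8a and Cd8b1, 7 of 7 were higher and the median was 1.27. The list was chosen with earlier results of these data known, so these counts describe its members and are not a test. The whole list has 23 genes, so most of it lies outside the comparison. Of the rest, 4 were listed for CD8a cells only, and 3 (Gzmk, Prf1 and Itgae) for CD4 cells only. Nkg7, a membrane protein of cytotoxic granules (chromosome 7, 43437073 to 43438249, plus strand), averaged 6.79, 7.69 and 7.58 in CD8a cells and 1.66, 1.38 and 2.26 in CD4 cells, without overlap. Its difference was 2.02 ± 0.11 (SE, n = 3 mice, limma adjusted p = 7.6e-06). Klrd1, the common chain of the CD94 and NKG2 receptors, averaged 2.19, 2.50 and 2.60 in CD8a cells and 0.452, 0.399 and 0.651 in CD4 cells, a difference of 2.09 ± 0.11 (SE, limma adjusted p = 7.3e-06). Both genes were therefore at several times the CD4 level in every mouse. Gzmm, a granzyme, was at 0.228, 0.358 and 0.303 in CD8a cells and 0.0455, 0.0464 and 0.102 in CD4 cells, and Cst7, an inhibitor of granule cathepsins, was at 0.653, 0.867 and 0.865 against 0.208, 0.401 and 0.227 in CD4 cells. Dapl1, a gene known from resting CD8 T cells, was at 5.59, 5.18 and 3.54 in CD8a cells and 2.46, 3.18 and 2.38 in CD4 cells, with a difference of 0.80 ± 0.10 (SE, limma adjusted p = 1.0e-03). The membrane-spanning Ms4a4c was at 0.831, 1.49 and 1.52 in CD8a cells and 0.333, 0.454 and 0.258 in CD4 cells. Its neighbour in the family Ms4a4b differed less, at 16.7, 17.7 and 18.2 in CD8a cells and 15.4, 13.6 and 13.8 in CD4 cells, and its call was lost without mouse 2; reads may be shared among members of that family.

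Of 13 listed effector and cytotoxic genes, 7 were higher and 3 lower in CD8a cells. Among the higher ones, Nkg7, Klrd1, Gzmm and Cst7 were already counted with the CD8 genes above. The 3 that were lower, S100a6, Lgals1 and Id2, are also known from activated cells of either lineage. Most of the list lies outside the comparison, since 15 more of its genes, Gzmb, Gzmk, Prf1, Ifng and Tbx21 among them, were listed for CD4 cells only and 2 for CD8a cells only. The list's median difference was 0.61, and the summed level of the 13 genes was 37.4, 53.0 and 63.1 in CD8a cells against 25.7, 26.3 and 54.3 in CD4 cells of mice 1, 2 and 3. CD4 cells of mouse 3 thus stood above those of the other mice. Ccl5, a chemokine of memory and effector cells, shows it, with 16.3, 27.1 and 36.5 in CD8a cells and 10.8, 12.2 and 34.3 in CD4 cells. The groups overlap. The difference within a mouse was 0.59, 1.15 and 0.09, its mean of 0.61 ± 0.15 (SE) passed with a limma adjusted p of 0.025, and the call was lost without mouse 2 and in the unpaired fit. Ly6c2, a surface antigen of memory CD8 cells (chromosome 15, 75108158 to 75111970, minus strand), averaged 4.48, 6.22 and 7.51 in CD8a cells and 1.04, 0.643 and 1.04 in CD4 cells. Its difference of 2.61 ± 0.17 (SE, limma adjusted p = 2.1e-05) was the widest after the coreceptor genes. Ly6c1, its near-identical neighbour, was listed for CD4 cells only, so the split of reads between both genes is uncertain.

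Receptors of cytokines and chemokines differed in both directions. Il2rb, the chain shared by the receptors of interleukins 2 and 15, averaged 1.62, 2.26 and 2.33 in CD8a cells and 0.856, 0.893 and 1.12 in CD4 cells, with no overlap and a difference of 1.03 ± 0.09 (SE, limma adjusted p = 1.5e-04). Ifngr1, a chain of the interferon gamma receptor, was at 1.30, 1.30 and 1.64 in CD8a cells and 0.945, 0.727 and 0.928 in CD4 cells. Il6ra, which binds interleukin 6, was the lower one, at 0.648, 0.717 and 0.477 in CD8a cells and 1.03, 1.32 and 1.24 in CD4 cells, a difference of −0.87 ± 0.13 (SE, limma adjusted p = 2.0e-03). Of the 11 listed genes of this list 3 were higher and 2 lower. Of 8 listed receptors of chemokines and adhesion, 3 were higher and 0 lower. Ccr9, the receptor that guides cells to the small intestine, was at 1.34, 0.937 and 0.801 in CD8a cells and 0.0857, 0.0502 and 0.393 in CD4 cells, and mouse 3 had the narrowest difference (0.87, against 2.96 and 2.79 in mice 1 and 2). Cxcr4 passed too (0.55 ± 0.15), though its groups overlap, at 0.701, 0.274 and 0.396 in CD8a cells and 0.481, 0.207 and 0.166 in CD4 cells, and its call was lost when any 1 of the mice was left out. Cxcr3, a receptor of effector cells, did not pass, at 0.324, 0.501 and 0.716 in CD8a cells and 0.415, 0.605 and 0.776 in CD4 cells.

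Other genes of the widest higher differences have less settled roles in T cells. Plac8, a small cysteine-rich protein, averaged 1.91, 1.81 and 1.60 in CD8a cells and 0.285, 0.132 and 0.486 in CD4 cells, a difference of 2.32 ± 0.23 (SE, limma adjusted p = 2.4e-04). Ctla2a, a cathepsin inhibitor, was at 1.06, 2.19 and 2.66 in CD8a cells and 0.419, 0.484 and 0.545 in CD4 cells. Mouse 1 was the low one of the CD8a values of Ctla2a, as it was for Ly6c2 and Ms4a4c. Dnajc15, a co-chaperone of the mitochondrial inner membrane, had the smallest SE of these genes, at 4.01, 3.78 and 3.77 in CD8a cells and 1.56, 1.41 and 1.44 in CD4 cells, a difference of 1.33 ± 0.06 (SE, limma adjusted p = 4.4e-06). Epsti1, an interferon-induced gene, was at 3.82, 4.29 and 4.24 in CD8a cells and 1.86, 1.56 and 2.06 in CD4 cells. Glipr2 was at 0.954, 1.22 and 0.863 in CD8a cells and 0.326, 0.416 and 0.565 in CD4 cells, and Jaml, a junctional adhesion molecule, at 0.368, 0.498 and 0.410 against 0.0718, 0.111 and 0.0726 in CD4 cells. None of these genes overlapped between the types.

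**Figure D2:**
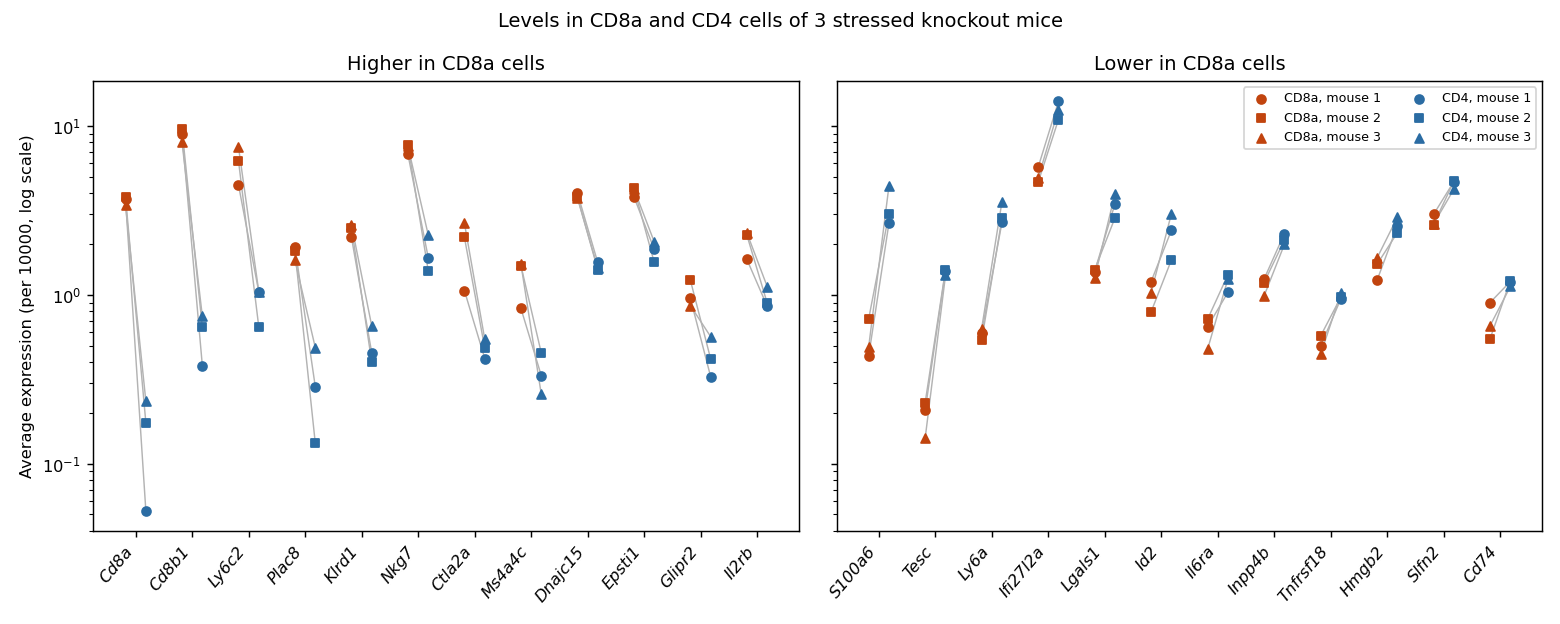
Average expression of the 12 genes with the largest and the 12 with the most negative CD8a minus CD4 difference among called genes at or above the median level with the same sign in 3 mice, on a log axis, in CD8a cells (orange, left of each pair) and CD4 cells (blue, right) of 3 stressed knockout mice, marked by shape, with a line joining the values of a mouse. Every line of the left panel falls and every line of the right panel climbs, and Cd8a has the widest gap.

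Genes of calcium-binding proteins, galectins and the surface antigen Ly6a led the lower side. S100a6, a calcium-binding protein (chromosome 3, 90612882 to 90624181, plus strand), averaged 0.435, 0.721 and 0.492 in CD8a cells and 2.67, 3.03 and 4.44 in CD4 cells, a difference of −2.41 ± 0.16 (SE, limma adjusted p = 2.6e-05). Tesc, an EF-hand protein that binds calcineurin (chromosome 5, 118027743 to 118061878, plus strand), averaged 0.207, 0.230 and 0.142 in CD8a cells and 1.39, 1.40 and 1.30 in CD4 cells, a difference of −2.33 ± 0.12 (SE, limma adjusted p = 5.5e-06). Ly6a, the Sca-1 antigen (chromosome 15, 74994877 to 74998031, minus strand), averaged 0.596, 0.538 and 0.632 in CD8a cells and 2.69, 2.84 and 3.57 in CD4 cells, a difference of −2.18 ± 0.09 (SE, limma adjusted p = 2.0e-06). No value of these genes overlapped between the types. Of 8 listed S100, galectin and annexin genes 5 were lower and 0 higher, with a median of −0.43, and their summed level was 11.4, 11.7 and 11.3 in CD8a cells against 17.2, 18.3 and 24 in CD4 cells. Lgals1, galectin 1, was at 1.37, 1.41 and 1.26 in CD8a cells and 3.46, 2.86 and 3.95 in CD4 cells. S100a10 (−0.46) and S100a11 (−0.44) passed as well, but lost their calls without mouse 2. S100a8, the partner of S100a9, did not pass (−0.34 ± 0.12, limma adjusted p = 0.095). The Ly6 family split, with Ly6c2 higher and Ly6a and Ly6e lower, Ly6e at 6.56, 6.76 and 7.34 in CD8a cells and 10.1, 8.47 and 9.58 in CD4 cells. Ass1, the urea-cycle enzyme that makes argininosuccinate, lay below the median level and was picked after its values were seen, at 0.184, 0.209 and 0.193 in CD8a cells and 0.770, 0.731 and 0.786 in CD4 cells.

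Helper and regulatory cell genes are largely outside the comparison, since 8 of the CD4 lineage genes and 8 of the regulatory genes were listed for CD4 cells only. Tnfrsf18, the GITR receptor of regulatory and activated cells, was the 1 regulatory gene listed for both, at 0.497, 0.570 and 0.444 in CD8a cells and 0.948, 0.970 and 1.02 in CD4 cells, a difference of −0.84 ± 0.11 (SE, limma adjusted p = 1.2e-03). Of transcription factors that set T cell fate, 1 was higher and 3 were lower of 16. Bcl11b, which keeps T cell identity, was at 2.72, 2.71 and 2.63 in CD8a cells and 4.16, 4.51 and 4.46 in CD4 cells, a difference of −0.68 ± 0.06 (SE, limma adjusted p = 1.0e-04). Id2, an inhibitor of E proteins, was at 1.2, 0.793 and 1.03 in CD8a cells and 2.41, 1.61 and 3.03 in CD4 cells, and Ets1, a factor of resting lymphocytes, at 4.50, 4.58 and 5.37 against 6.39, 6.17 and 6.90 in CD4 cells. Tcf7 and Lef1, the factors of naive and memory stem cells, did not pass; Tcf7 was at 3.59, 4.01 and 3.96 in CD8a cells and 3.91, 4.65 and 3.70 in CD4 cells. Ikzf3 was the higher one, at 0.458, 0.545 and 0.737 in CD8a cells and 0.309, 0.388 and 0.476 in CD4 cells, with overlap and a call lost when any 1 of the mice was left out. Inpp4b, a phosphoinositide phosphatase, was at 1.24, 1.18 and 0.986 in CD8a cells and 2.31, 2.11 and 1.99 in CD4 cells, and Hmgb2, a chromatin protein of dividing and activated cells, at 1.22, 1.52 and 1.65 against 2.57, 2.34 and 2.88 in CD4 cells.

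Of 16 listed genes of the T cell receptor and its signalling 5 were lower and 1 higher, against 9.6% and 7.29% of all genes. The median of these 16 was −0.17. With each average centred on its median, 4 were lower and 3 higher. Trbc2, a constant segment of the beta chain, was at 15.8, 15.0 and 14.9 in CD8a cells and 21.0, 20.8 and 19.2 in CD4 cells, a difference of −0.41 ± 0.03 (SE, limma adjusted p = 8.8e-05). Fyb, the adaptor ADAP, was at 3.58, 3.54 and 3.56 in CD8a cells and 4.93, 4.64 and 4.55 in CD4 cells, and Lat, the scaffold of receptor signalling, at 3.16, 2.57 and 2.66 against 3.92, 4.01 and 4.0 in CD4 cells. Cd3g was lower too, at −0.28 ± 0.04, whereas Cd3d (0.06 ± 0.04) and Lck (0.01 ± 0.05) did not pass. Themis, needed for selection in the thymus, was the higher member, at 1.26, 1.29 and 1.30 in CD8a cells and 0.864, 0.933 and 0.969 in CD4 cells, and its call was lost without mouse 2. Of 6 listed Gimap genes, GTPases of lymphocyte survival, 3 were lower, with Gimap1 at 3.01, 3.62 and 3.31 in CD8a cells and 4.65, 5.19 and 4.93 in CD4 cells.

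Of 21 listed interferon response genes 5 were lower in CD8a cells and 0 higher, against 9.6% and 7.29% of all genes. The median of these 21 was −0.09. Their summed level was 27.7, 23.9 and 24.2 in CD8a cells and 41.2, 33.1 and 35.5 in CD4 cells, in large part through Ifi27l2a. That interferon-induced gene was at 5.69, 4.64 and 4.92 in CD8a cells and 14.0, 10.9 and 12.5 in CD4 cells, a difference of −1.27 ± 0.04 (SE) with the smallest limma adjusted p of the comparison, 9.6e-07. Slfn2, a Schlafen gene tied to T cell quiescence, was at 2.99, 2.61 and 2.62 in CD8a cells and 4.69, 4.71 and 4.22 in CD4 cells. Samhd1, an enzyme that breaks down nucleotides, passed at −0.52 ± 0.06. Epsti1, which stood outside this list, went the other way. Of 10 listed genes of MHC class I and its peptide supply 3 were lower and 0 higher; H2-D1, a class I heavy chain that shares sequence with other H2 genes, was at 14.6, 15.0 and 15.1 in CD8a cells and 18.2, 17.7 and 18.8 in CD4 cells, a difference of −0.29 ± 0.03. Psmb9, an immunoproteasome subunit, was at 2.08, 2.02 and 1.97 in CD8a cells and 2.46, 2.58 and 2.46 in CD4 cells, and its call was lost without mouse 2, without mouse 3 and after rescaling. B2m did not pass (−0.05 ± 0.03). With averages centred on their medians, 2 of the 10 were lower and 1 higher; with ribosomal and mitochondrial genes left out and the rest rescaled, 1 was lower.

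Genes of the cytosolic ribosome were higher together in CD8a cells. Of 85, 61 were called higher (7.29% of all genes were) and 0 lower, with a median of 0.14. Without the mean-variance trend 61 of these 61 calls were lost. Summed over the list, the averages were 3292, 3220 and 3192 in CD8a cells and 2948, 2898 and 2795 in CD4 cells. With averages centred on their medians, 75 were higher and 0 lower. All genes of an average share a set total, and the part of the ribosomal share in the differences of other genes was not tested. Rps18, a small-subunit protein, was at 89.7, 86.6 and 84.9 in CD8a cells and 71.1, 70.4 and 67.4 in CD4 cells, a difference of 0.32 ± 0.02 (SE, limma adjusted p = 1.3e-05). Rpl32, a large-subunit protein, was at 78.4, 79.0 and 77.4 in CD8a cells and 61.7, 63.7 and 61.7 in CD4 cells, and differed by 0.33 ± 0.02. Eef1b2, an exchange factor of translation elongation, was higher by 0.34 ± 0.03, and Gas5, a host of small nucleolar RNAs, was at 6.12, 6.12 and 5.86 in CD8a cells and 4.85, 4.68 and 4.45 in CD4 cells. Ribosomal genes have many near-identical pseudogenes, so reads may be shared. Of 10 mitochondrially encoded genes 4 were higher and 1 lower, or 6 and 0 with centring. mt-Nd2, a complex I subunit, was at 33.7, 37.9 and 39.2 in CD8a cells and 29.5, 30.8 and 30.3 in CD4 cells, and mt-Nd1, another, was higher by 0.22 ± 0.03. mt-Cytb, of complex III, was the lower one (−0.13 ± 0.03), and its call was lost without mouse 2 and after centring.

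Genes that stress hormones act on gave 1 higher and 1 lower call of 4 listed, Cxcr4 and Ddit4, and Ddit4 overlapped between the types. Tsc22d3, a glucocorticoid-induced leucine zipper, was at 2.07, 0.768 and 1.28 in CD8a cells and 1.76, 0.824 and 1.08 in CD4 cells, and did not pass; mouse 1 was the highest in both types. Of 12 listed genes of naive and resting cells 2 were higher, Ccr9 among them, and 2 lower, Ets1 and Il6ra, with a median of −0.08.

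Nuclear genes of oxidative phosphorylation differed little, with 2 higher, 7 lower and 64 not called of 73. Over all genes 7.29% were called higher and 9.6% lower. With centring 2 of the 73 were higher and 3 lower, and with rescaling 2 and 2. Atp5md and Ndufa3, subunits of ATP synthase and complex I, differed by −0.42 ± 0.08 and −0.35 ± 0.07, and both lost their calls without mouse 2. Of 23 actin and cytoskeleton genes 10 were lower and 2 higher, with a median of −0.15. Tmsb4x, the actin-binding thymosin beta 4, was at 134, 129 and 126 in CD8a cells and 151, 148 and 146 in CD4 cells, a difference of −0.19 ± 0.02, and Actb, beta actin, was at 52.0, 48.3 and 47.7 in CD8a cells and 61.9, 58.7 and 55.9 in CD4 cells. With ribosomal and mitochondrial genes left out and the rest rescaled, 5 of the list were lower and 2 higher. Malat1, a long nuclear RNA, was at 128, 124 and 121 in CD8a cells and 161, 152 and 150 in CD4 cells, and 4 of the other 7 listed noncoding RNAs were higher (6 with centring). Of 24 chaperones 2 were higher and 5 lower; Hspe1, a mitochondrial chaperonin, was at 5.18, 4.70 and 4.43 in CD8a cells and 4.39, 3.41 and 3.36 in CD4 cells, and its call was lost without mouse 2.

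**Figure D3:**
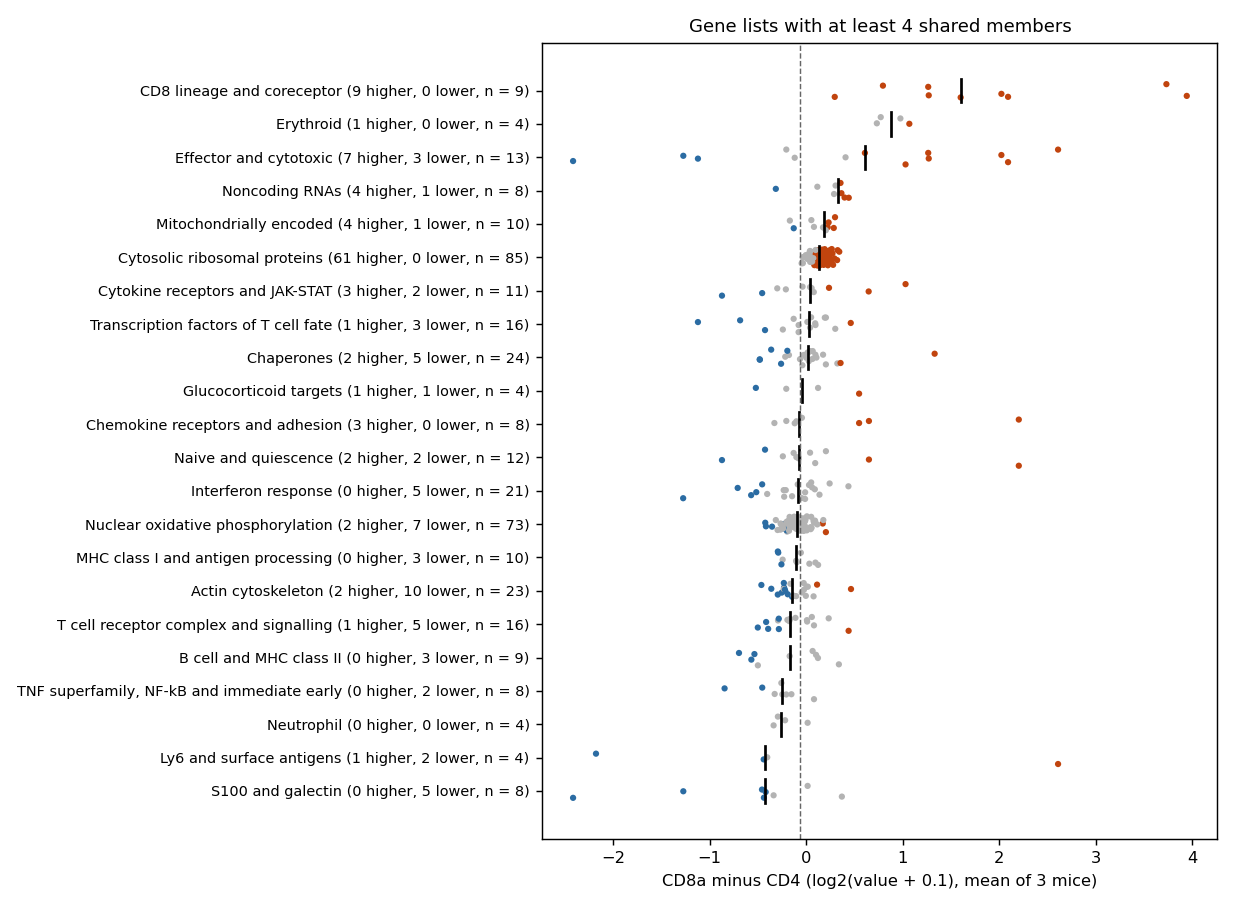
CD8a minus CD4 difference on the log2(value + 0.1) scale, mean of 3 mice, for the members of lists with at least 4 genes listed for both cell types. Orange and blue points are genes called higher and lower in CD8a cells, grey points the rest, black bars list medians and the dashed line the median of all 2166 genes at −0.06. The CD8 lineage list sits furthest right and the S100 and galectin list furthest left.

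Transcripts of other cells were found in both averages. Ighm, the heavy chain of B cell immunoglobulin M, was listed for CD8a cells only, at 2.74, 2.72 and 3.09. Of 9 listed B cell and MHC class II genes 3 were lower in CD8a cells and 0 higher, with summed levels of 3.30, 3.09 and 3.87 in CD8a cells and 3.81, 4.39 and 4.67 in CD4 cells. Cd74, the invariant chain of class II, was at 0.900, 0.549 and 0.655 in CD8a cells and 1.2, 1.21 and 1.12 in CD4 cells, and H2-Eb1, a class II chain, differed by −0.57 ± 0.14; both calls were lost without mouse 2. Summed levels of 4 neutrophil genes were 0.242, 0.178 and 0.200 in CD8a cells and 0.449, 0.264 and 0.225 in CD4 cells. Those of 3 listed monocyte and dendritic cell genes, Lyz2, Cst3 and Bst2, were 2.50, 2.05 and 2.28 against 2.97, 2.15 and 2.75 in CD4 cells. Bst2 also stands in the interferon response list, so the sum of these 3 genes need not come from other cells. Of these 7 genes 0 were called. Haemoglobin genes were highest in mouse 1, with summed levels of 15.9, 1.39 and 5.66 in CD8a cells and 5.08, 1.74 and 1.70 in CD4 cells. Hbb-bs, a beta globin, was at 8.53, 0.886 and 3.09 in CD8a cells and 2.80, 0.965 and 0.849 in CD4 cells, with overlap. It was called (1.07 ± 0.29, limma adjusted p = 0.038) although mouse 2 went the other way (−0.11), and its call was lost without mouse 1 and without mouse 3. The parts of these cells in the other differences were not tested.

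The difference between cell types was next set against that in the other groups of mice, which asks whether stress or genotype alters it. Of the 158 higher genes, CD8a exceeded CD4 on average in 155 in unstressed knockout mice, 157 in stressed wild-type mice and 157 in unstressed wild-type mice. Of the 208 lower genes 206, 208 and 200 kept the direction. How many of all 2166 genes kept their direction was not counted, so these counts of direction have no background beside them. In a limma fit of all 12 mice, in which all groups share an estimate of spread, 141, 137 and 117 of the higher and 166, 171 and 130 of the lower genes were also called in those groups. Over all 2166 genes that fit called 9.42%, 8.68% and 7.94% higher and 16.3%, 19.0% and 11.2% lower in the same groups, and 11.2% higher and 20.2% lower in stressed knockout mice. No gene's CD8a minus CD4 difference was called as changed between stressed and unstressed knockout mice (0 of 2166, 0.0%, in limma; 127 at an unadjusted p under 0.05) or between knockout and wild-type mice after stress (0 of 2166, 0.0%; 178). These comparisons share the stressed knockout mice. A missed threshold does not show that the differences were equal.

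The genes with the smallest p are given as values that did not pass. Taking stressed minus unstressed knockout mice, the difference changed by 1.83 ± 0.50 (SE) for Hbb-bs, 1.52 ± 0.39 for Hbb-bt, another beta globin, 0.51 ± 0.14 for Pglyrp1, a peptidoglycan-binding protein, −0.33 ± 0.09 for Tmed2, a cargo receptor of vesicles, and −0.31 ± 0.09 for Dnaja1, a co-chaperone (limma adjusted p = 0.60 each). Hbb-bs was at 8.53, 0.886 and 3.09 in CD8a cells of stressed and 1.31, 1.15 and 0.188 in those of unstressed knockout mice, and at 2.80, 0.965 and 0.849 in CD4 cells of stressed and 2.94, 2.00 and 0.285 in those of unstressed knockout mice. Without mouse 2 of the stressed knockout group, 4 genes passed, all of them haemoglobin genes (Hba-a1, Hba-a2, Hbb-bs and Hbb-bt). The S100a6 difference was −2.41 in stressed and −3.12 in unstressed knockout mice, and passed only without mouse 3 of the unstressed group (change 1.22 ± 0.21 in limma). CD4 cells of that mouse had 1.47, against 5.01 and 4.22 in the other unstressed knockout mice.

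Taking knockout minus wild-type mice after stress, the difference changed by −0.58 ± 0.15 (SE) for Tesc, 0.45 ± 0.12 for Tardbp, an RNA-binding protein, 0.66 ± 0.17 for A630081D01Rik, 0.45 ± 0.12 for Ubn2, a histone chaperone subunit, and 1.38 ± 0.39 for Hbb-bt (limma adjusted p = 0.51 each). Tesc was at 0.207, 0.230 and 0.142 in CD8a cells of stressed knockout mice and 0.313, 0.317 and 0.317 in those of stressed wild-type mice. In CD4 cells it was at 1.39, 1.40 and 1.30 in stressed knockout mice and 1.22, 1.29 and 1.41 in stressed wild-type mice, so the groups overlap in CD4 cells and not in CD8a cells. Without mouse 2 of the stressed knockout group 3 genes passed, Hba-a1, Hba-a2 and Hbb-bt.

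**Figure D4:**
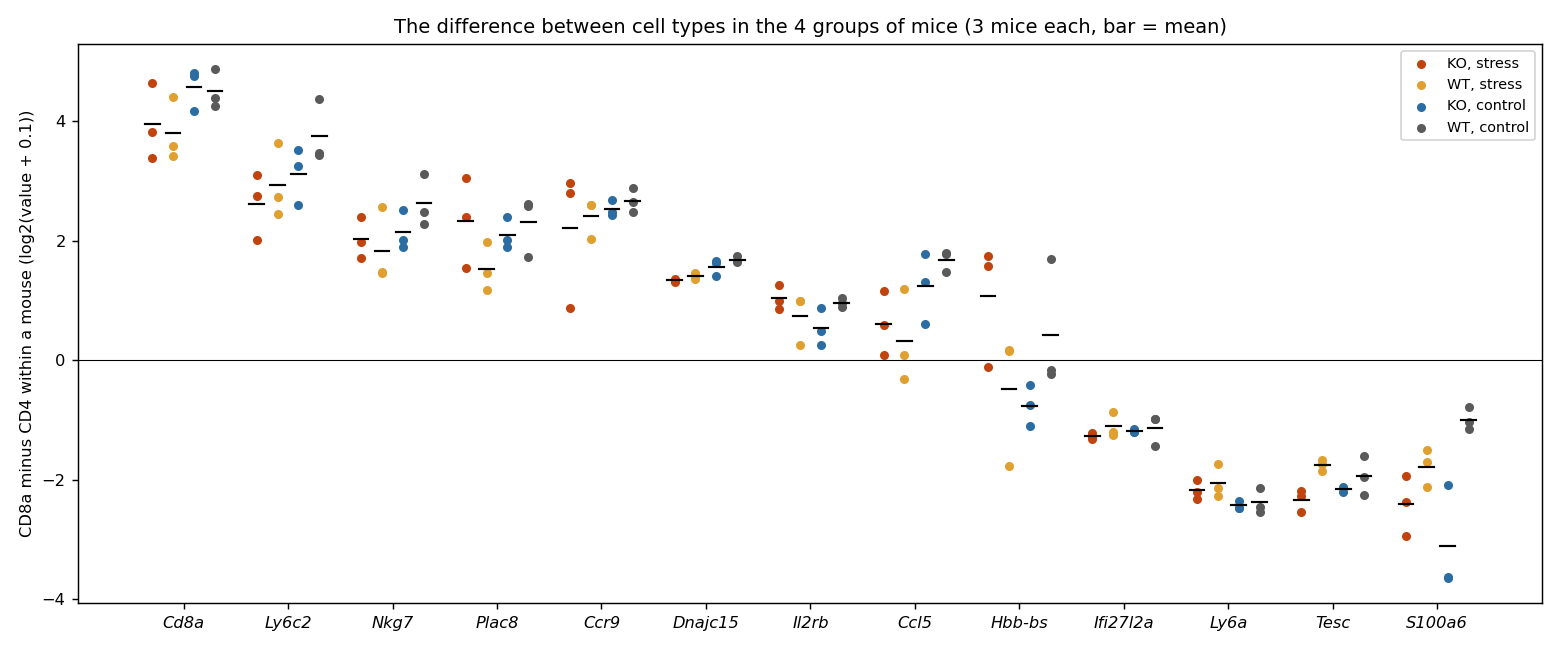
CD8a minus CD4 difference within a mouse on the log2(value + 0.1) scale for 13 genes in stressed knockout, stressed wild-type, unstressed knockout and unstressed wild-type mice, 3 mice each, with bars at the means. Cd8a group means lie between 3.80 and 4.57, and Hbb-bs has points on both sides of 0 among stressed knockout mice.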

How the data were processed

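Spleen cells of 12 mice were sequenced by a droplet method that reads transcript 3′ ends, per the labels' protocols, and processed with Cell Ranger 2.1.1 on mm10, per the submitters' processing notes. The deposited signal is the authors' average expression per mouse and cell type, per the file headers. Its scale was taken as linear and near 10000 in total. The listed genes of an average summed to between 7367 and 8270. How cells were filtered and assigned to types, how doublets were treated, how the authors chose the listed genes, cell numbers and depth are not given in the sources used here. With no counts, no interval for counting error and no detection floor can be given; 0 columns were left unused. The listed genes were chosen on these same mice.

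Members, lists and tests were chosen with earlier results of these data known. Some genes stand in more than 1 list, so the counts of different lists are not separate results. Differences of log2(value + 0.1), CD8a minus CD4 within a mouse, were tested with limma 3.58.1 in R 4.3.3 with a mean-variance trend, two-sided, Benjamini-Hochberg adjusted over 2166 genes. The calling threshold was an adjusted p of 0.05. Such differences understate the change of low genes. The p-values rest on the spread between 3 mice per group together with spread borrowed from genes of like level. For changes between groups of mice the spread is pooled over all 12 mice. Both averages of a mouse come from the same animal and library, so they were paired; their deviations from the group means correlated at 0.308, 0.184 and 0.100 in mice 1, 2 and 3. Changes between groups of mice were tested in a fit of all 12 mice. Named genes were the coreceptor genes, the 12 widest called differences in each direction at or above the median level with the same sign in 3 mice, the 2 smallest p of each list with at least 3 called members, and, for a comparison with under 5 calls, the 5 genes of smallest p; other names were chosen after their values were seen. A few genes under this rule are left out of the text. Gene positions follow GENCODE M21 on mm10, which matched 2109 genes (97.4%). Alternatives were other pseudocounts, a filter on low genes, centring, rescaling without ribosomal and mitochondrial genes, no trend, no pairing, a fit of all mice and leaving out each mouse.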

Additional observations from a re-analysis of the deposited data

How the results depend on the processing

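Of 44 named genes followed under the alternatives in stressed knockout mice, none changed sign, but the balance of higher and lower calls turned with centring. For other genes named in the text the sign was not checked, and small differences such as that of B2m can turn with centring. Against 158 higher and 208 lower genes, centring each average on its median gave 238 higher (143 lower), no mean-variance trend 30 and 45, and the fit of all 12 mice 243 and 437. Leaving ribosomal and mitochondrial genes out and rescaling gave 108 and 123 of 2069 genes. Leaving out each mouse gave 90 to 142 higher and 88 to 167 lower genes; 208 of the 366 calls were lost without at least 1 of the mice, 193 of them without mouse 2. The fit with no replicate block, that is without pairing by mouse, gave 121 and 169. For 44 named genes 449 of 479 values under alternatives kept their call and 30 lost it, 21 of these without the trend. Between stressed and unstressed knockout mice, leaving out each mouse gave 0 to 4 genes, and between knockout and wild type after stress 0 to 3. Across groups the mouse numbers were only shared numbers (correlations of −0.027 to 0.062); with them as a replicate block 0 genes passed in either comparison. The causes of these shifts were not tested. The number of reads and cells behind an average is unknown, so low genes cannot be weighed by depth.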

Other observations

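Genes listed for a single cell type round out the picture. Why a gene is missing for the other type is not given in the sources used here, so its level there is unknown. Listed for CD8a cells only were Ctsw, a cathepsin of cytotoxic cells, at 1.61, 1.78 and 2.02 in mice 1, 2 and 3 of the stressed knockout group, Xcl1, a chemokine that attracts dendritic cells, at 0.261, 0.845 and 0.660, Il7r, the interleukin 7 receptor of resting cells, at 5.58, 5.56 and 6.37, and Ccr7, the lymph node homing receptor, at 1.64, 1.35 and 1.42. Listed for CD4 cells only were Cd40lg, the helper ligand of B cells, at 0.473, 0.437 and 0.515, Icos, a costimulatory receptor, at 0.709, 0.763 and 1.02, and Ikzf2, the Helios factor of regulatory cells, at 1.52, 1.40 and 2.1. Izumo1r, the folate receptor 4 of regulatory cells, was at 1.23, 2.00 and 1.89 in CD4 cells, and Maf, a factor of helper cells, at 0.879, 1.10 and 1.34. Gzma, a granzyme, stood at 1.02, 1.18 and 3.27 in CD4 cells, and S100a4 at 2.13, 2.61 and 3.40, so mouse 3 was the highest for both, as it was for Ccl5 in CD4 cells.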
